A study of Rattus norvegicus with 6 samples.

Results

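This section describes 10 genes for proteins that airway epithelium secretes into, or carries on, the mucus layer of the lung, out of 19828 entries in the day 56 table of total lung RNA. They are the secretoglobins Scgb1a1, Scgb3a1 and Scgb3a2, the BPI fold proteins Bpifa1 and Bpifb1, the mucins Muc1, Muc5b and Muc5ac, and the antimicrobial proteins Ltf and Lcn2. The genes were taken by symbol, and all 10 were in the table. They were selected on their Ahr-KO and WT values in this same table, so their values are a description and carry no test. Libraries came from total lung of Sprague-Dawley rats that were either Ahr-KO (3 libraries) or wild type (WT, 3 libraries). Both groups had the same label of Sugen-Hypoxia (SuHx) treatment and the same day, 56, so no library shows a lung without that treatment. Sugen blocks VEGF receptors, and with low oxygen it is used to model pulmonary arterial hypertension in rats. AHR, the aryl hydrocarbon receptor, binds small molecules and then switches genes on together with its partner ARNT. How Ahr was disrupted, and where in the gene, is not stated in the labels.

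The conducting airways are lined by club, ciliated and, in larger airways, goblet and gland cells. Club cells release secretoglobins, small proteins that are among the most abundant in airway fluid. Gel-forming mucins such as Muc5b and Muc5ac make up mucus, which cilia carry out of the lung, whereas Muc1 stays anchored in the cell membrane. BPI fold proteins, lactoferrin and lipocalin 2 limit the growth of bacteria on the airway surface. In bulk tissue, fewer cells of a type and less RNA per cell cannot be told apart.

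Values were a normalised signal per gene with steps like those of scaled read counts, and the table's own numbers, 0, 1 and 2, name the libraries of each genotype. Summed values were 18.9 to 19.3 M for Ahr-KO and 17.8 to 18.0 M for WT. The step between low values put the depth at 14.2 to 23.6 M reads in Ahr-KO and 12.9 to 21.9 M in WT, with library 2 the shallowest of each group. Ahr itself stood at 2399, 3923 and 3575 in Ahr-KO, against 2940, 2860 and 3395 in WT libraries, overlapping levels (log2 0.08 ± 0.18, limma adjusted p = 0.81). Gene-level reads cannot check the labels where the disrupted part of the gene is unknown. Its target genes did separate the labels: Cyp1a1, an oxidising P450, averaged 4.22 ± 5.42 in Ahr-KO and 29430.5 ± 7376 in WT libraries (SD, n = 3 each; limma adjusted p = 0.00024), and Cyp1b1, Ahrr and Nqo1 were lower as well (adjusted p = 0.00051, 9.4e-06 and 0.0036). The alveolar surfactant gene Sftpc, a defining marker of lung, was abundant in every library. Levels are not set against each other between genes, because transcript lengths were not used. Differences are Ahr-KO minus WT on the log2(value + 1) scale with their SE, which understates changes of genes with low values. Fold changes between the genotypes are these fitted differences on the linear scale, and so are not ratios of the means given.

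Among the secretoglobins, Scgb3a1 was low in every Ahr-KO library, while Scgb1a1 and Scgb3a2 were read at overlapping levels in both genotypes. Scgb1a1, the club cell secretory protein, had values of 171983, 275385 and 167882 in Ahr-KO libraries 0, 1 and 2, against 220005, 188771 and 174785 in the WT libraries. The groups overlapped, with Ahr-KO library 1 the highest of all 6 libraries. The difference was 0.04 ± 0.25, with a 95% interval of -0.53 to 0.62, and its sign turned after quantile normalisation (-0.32). Scgb3a2, a secretoglobin of small airways in mice, had values of 1679, 2936 and 2451 in Ahr-KO, against 2547, 1914 and 1933 in WT libraries. These groups overlapped as well, with a difference of 0.12 ± 0.21 and an interval of -0.36 to 0.60.

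Scgb3a1, a secretoglobin that in mice and humans marks larger and upper airways, stood at 48.4, 35.5 and 8.18 in Ahr-KO, against 207.9, 497.7 and 560.9 in WT libraries. No Ahr-KO library reached the lowest WT library. The means were 30.7 ± 20.5 in Ahr-KO and 422 ± 188 in WT (SD, n = 3 each). The fitted log2 difference was -3.93 ± 0.64, which on the linear scale is 15.2-fold lower. The estimated reads behind these values were 60, 43 and 6 in Ahr-KO and 208, 606 and 401 in WT, so the value of Ahr-KO library 2 has a large counting error. Set against the club cell protein of the same library, Scgb3a1 amounted to 0.0049 to 0.028 per 100 units of Scgb1a1 in Ahr-KO and to 0.095 to 0.32 in WT, and the groups did not overlap on this measure. The same ratio for Scgb3a2 lay between 0.98 and 1.46 in Ahr-KO and between 1.01 and 1.16 in WT, so those groups overlapped. Of the 8 other Scgb symbols in the table, 6 were listed at 0 in all libraries and the highest value of the others was 12.3.

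**Figure D1:**
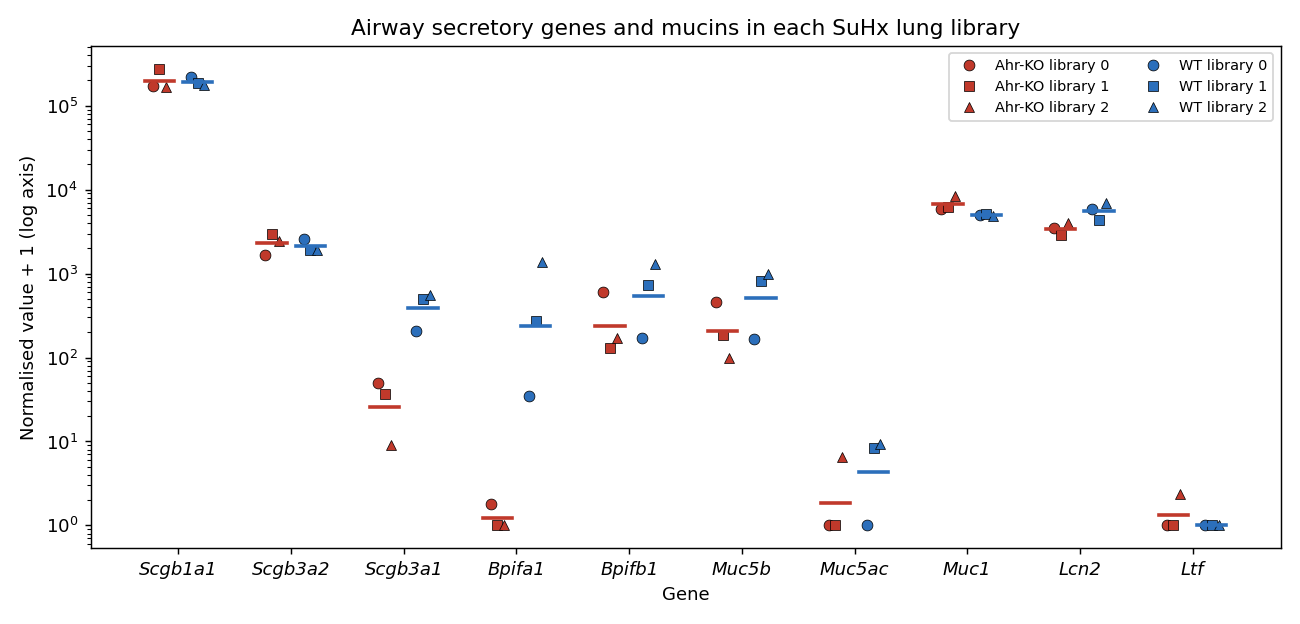
Normalised value + 1 (log axis) of each of the 10 genes in each library, with Ahr-KO in red to the left of WT in blue; marker shapes give the library number and bars the mean on the log scale. Scgb3a1 and Bpifa1 are lower in all 3 Ahr-KO libraries than in any WT library, whereas Scgb1a1 and Scgb3a2 overlap between the groups.

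Bpifa1 encodes a secreted protein of the nose and large airways that in humans and mice lowers surface tension and restrains the epithelial sodium channel. It was nearly unread in Ahr-KO lungs, with values of 0.81, 0 and 0 in Ahr-KO, against 34.0, 269 and 1386 in WT libraries. In estimated reads this was 1, 0 and 0 in Ahr-KO and 34, 328 and 991 in WT, and a count of 0 allows a value of up to 2.48 in Ahr-KO library 1 and 4.09 in library 2. Pooled over libraries and scaled for depth, the ratio of Ahr-KO to WT was 0.00068, with an exact 95% interval of 1.7e-05 to 0.0038. That interval covers counting error only. The WT libraries themselves differed 40.8-fold, and the lowest of them, library 0, was still above the limit of each Ahr-KO library. The fitted log2 difference was -7.60 ± 1.14, but for a gene this close to 0 it depends on the pseudocount: it was -10.13 with a pseudocount of 0.1. Bpifa1 passed the filter on low values only through the WT libraries, so it had to differ.

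Bpifb1, a related secreted protein of goblet and gland cells, did not share that near absence. Its values were 598.8, 127 and 168 in Ahr-KO, against 168, 735 and 1291 in WT libraries. Ahr-KO library 0 lay inside the WT range and WT library 0 inside the Ahr-KO range, and the difference was -1.21 ± 0.80 (95% interval -3.05 to 0.63). Per 100 units of Bpifb1 in the same library, Bpifa1 amounted to at most 0.13 in Ahr-KO and to 20.2 to 107 in WT. Scgb3a1 amounted to 4.88 to 27.9 per 100 units of Bpifb1 in Ahr-KO and to 43.4 to 124 in WT, again without overlap. Bpifa1 and Bpifb1 belong to a cluster on rat chromosome 3, where RefSeq places Bpifa5 between them. Bpifa5, named here after its values were seen, had values of 98.3, 205 and 121 in Ahr-KO, against 109, 141 and 151 in WT libraries, with a difference of 0.02 ± 0.28 (limma adjusted p = 0.97). Of the 10 other Bpif symbols in the table, Bpifa5 alone reached 50 in any library.

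Promoter sequence was looked up for all 10 genes. RefSeq promoters (build GRCr8) matched 8 of the 10 genes by symbol; Muc5b and Muc5ac had none. The 250 bases before the start site are shown for a secretoglobin whose groups overlapped, for one whose groups did not, and for both BPI fold genes, 5′ to 3′ on the gene's strand. Capitals mark the letters of a TATA box (TATAAA), wherever they lie, or the core of the AHR-ARNT binding motif (GCGTG, or CACGC on the other strand). These windows are Scgb1a1 at chr1:215409687-215409936 (minus strand), Scgb3a1 at chr10:34468916-34469165, Bpifa1 at chr3:163087715-163087964 and Bpifb1 at chr3:163132901-163133150 (plus strand for the other three).
Scgb1a1: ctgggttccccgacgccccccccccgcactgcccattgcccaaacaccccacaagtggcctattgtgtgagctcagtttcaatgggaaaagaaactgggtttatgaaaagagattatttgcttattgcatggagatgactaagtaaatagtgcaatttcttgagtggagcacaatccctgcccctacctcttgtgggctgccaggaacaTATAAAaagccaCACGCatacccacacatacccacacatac
Scgb3a1: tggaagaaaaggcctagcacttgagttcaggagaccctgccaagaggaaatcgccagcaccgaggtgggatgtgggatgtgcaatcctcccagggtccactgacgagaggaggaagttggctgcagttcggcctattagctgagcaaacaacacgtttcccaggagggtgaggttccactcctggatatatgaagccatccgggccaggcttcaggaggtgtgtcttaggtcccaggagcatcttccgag
Bpifa1: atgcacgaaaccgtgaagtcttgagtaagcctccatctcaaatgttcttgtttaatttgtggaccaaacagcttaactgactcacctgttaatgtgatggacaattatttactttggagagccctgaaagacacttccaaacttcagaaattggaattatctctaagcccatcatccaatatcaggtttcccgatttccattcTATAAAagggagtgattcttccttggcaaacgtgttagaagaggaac
Bpifb1: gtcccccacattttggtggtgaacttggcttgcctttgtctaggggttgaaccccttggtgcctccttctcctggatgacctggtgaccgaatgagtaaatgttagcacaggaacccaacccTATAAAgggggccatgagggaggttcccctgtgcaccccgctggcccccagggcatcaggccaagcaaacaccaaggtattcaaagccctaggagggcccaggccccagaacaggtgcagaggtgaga
The AHR-ARNT core was present in the windows of Scgb1a1, at 29 bases before the start, and of Ltf, and so in 2 of 8 genes. It was in 25.9% of all 33469 windows of this length in the table. Scgb3a1 and Bpifa1, the genes lowest in Ahr-KO relative to WT, did not hold these letters in this window. The letters TATAAA were found in Scgb1a1, Muc1, Bpifa1 and Bpifb1, 4 of 8 genes, against 12.9% of all windows, counting both strands. In these genes they began 41, 33, 47 and 128 bases before the start. The letters CTCAAG, part of the NKX2-1 motif, were in 4 of the 8 windows (Scgb1a1, Scgb3a1, Scgb3a2 and Bpifa1) and in 13.3% of all. The FOXA letters TGTTTAC were in 0 of the 8 and in 3.21% of all. A match describes the letters and is not a site of binding. The lack of one in 250 bases says nothing of sites elsewhere.

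Among the mucins, the gel-forming Muc5b varied widely within both groups, and the membrane mucin Muc1 was somewhat higher in every Ahr-KO library. Muc5b, the main gel-forming mucin of healthy airways and needed for mucus clearance in mice, had values of 460, 187 and 98.2 in Ahr-KO, against 165, 811 and 989 in WT libraries. As for Bpifb1, Ahr-KO library 0 and WT library 0 crossed into the range of the other group, and the difference was -1.32 ± 0.75 (95% interval -3.04 to 0.40). Within a library, Muc5b was 76.9, 147 and 58.5 per 100 units of Bpifb1 in Ahr-KO, against 98.2, 110 and 76.6 in WT libraries. The ratio varied more among the Ahr-KO libraries, and the groups overlapped. Muc5b itself differed 4.69-fold among Ahr-KO and 5.996-fold among WT libraries.

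Muc5ac, the gel-forming mucin that goblet cells make on allergic or irritant stimulation, was close to the limit of reading. It stood at 0, 0 and 5.46 in Ahr-KO, against 0, 7.39 and 8.39 in WT libraries, which is at most 9 estimated reads in a library. The groups overlapped, and the difference was -1.20 ± 1.08. It lies beside Muc5b in the mucin cluster of rat chromosome 1, and reads from repeats that the gel-forming mucins share could be placed on either gene.

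Muc1, an anchored mucin of airway and alveolar epithelium, had values of 5885, 6174 and 8314.5 in Ahr-KO, against 5012, 5152 and 4874 in WT libraries. All Ahr-KO libraries were above all WT libraries, which differed from each other only 1.06-fold. The means were 6791 ± 1327 in Ahr-KO and 5013 ± 139 in WT (SD, n = 3 each). By the fit, Muc1 was 1.34-fold higher in Ahr-KO (log2 0.42 ± 0.13). Epithelial markers lay on the same side: of 14 tested pan-epithelial markers, 14 had a positive difference. Of all 15386 tested genes, 7537 had a negative one. In this list 3 passed the test, all higher (21.4%, beside 4.5% of all tested genes), and 11 did not. Summed values of the list were 45222 to 53627 in Ahr-KO and 29531 to 34877 in WT. Much of that gap came from Krt7 and Krt19, which averaged 11378 and 10045 in Ahr-KO, against 4236 and 5203 in WT. The part of these markers in the Muc1 difference was not tested.

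The antimicrobial genes were split between an abundant and an unread member. Lcn2, lipocalin 2, which binds the iron carriers of bacteria, had values of 3491, 2868 and 4008 in Ahr-KO, against 5898, 4291 and 7003 in WT libraries. The highest Ahr-KO library lay just under the lowest WT library. The means were 3456 ± 571 in Ahr-KO and 5731 ± 1364 in WT (SD, n = 3 each). By the fit, Lcn2 was 1.64-fold lower in Ahr-KO (log2 -0.71 ± 0.19). Ltf, the iron-binding protein lactoferrin, was read once in all: it stood at 0, 0 and 1.36 in Ahr-KO, against 0, 0 and 0 in WT libraries. A count of 0 allows a value of up to 2.46 in WT library 1 and 4.20 in WT library 2.

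Lcn2 and Ltf are also stored in neutrophil granules. Of 13 tested neutrophil markers, 1 fell (7.69%, beside 6.26% of all tested genes) and 0 rose (limma, adjusted p under 0.05). The list's first gene, S100a8, averaged 279 ± 94.2 in Ahr-KO and 226 ± 118 in WT (adjusted p = 0.58). The one that fell, Fcnb, a lectin of granules and monocytes, averaged 82.8 ± 23.3 in Ahr-KO and 206 ± 72.9 in WT (adjusted p = 0.037, and up to 0.13 under the alternatives). The summed neutrophil markers were 971 to 2013 in Ahr-KO and 1284 to 2065 in WT, and Ctsg was listed at 0 throughout. Their part in the Lcn2 difference was not tested.

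Counted over the 9 genes that passed the filter (1 or more in 3 or more libraries), the groups did not overlap for 3 that were lower in Ahr-KO (Scgb3a1, Bpifa1 and Lcn2) and for 1 that was higher (Muc1). Across all tested genes, 17.4% were lower and 17% higher without overlap. Since these genes were chosen with this contrast known, nothing is read from that count. Without WT library 0, the lowest WT library of the widely varying genes, it was 7 in place of 4. Fewer libraries make a lack of overlap more common for every gene. The share of all tested genes without that library was not computed, so nothing is read from this rise either. Ltf did not pass the filter. By the limma test, 10.8% of all tested genes passed in either direction. The median difference of the 9 genes was -1.20, beside 0.01 over all 15386 tested genes. The same choice of genes bears on this median, so nothing is read from it.

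The spread within a genotype set the genes apart into kinds. The SD of log2 values within groups ranked at the 99.6th percentile of all tested genes for Bpifa1, the 99.4th for Muc5ac, the 98.8th for Bpifb1, the 98.6th for Muc5b and the 97.3rd for Scgb3a1. It ranked at the 71.1st for Scgb3a2, the 67.9th for Scgb1a1, the 67.4th for Lcn2 and the 45.8th for Muc1. Genes with few reads vary more for counting reasons, which touches Muc5ac most, whereas Bpifb1 and Muc5b rested on 123 to 923 and 72 to 988 estimated reads. Between WT libraries, Bpifb1 differed 7.69-fold and Scgb3a1 2.70-fold, against 1.26-fold for Scgb1a1 and 1.33-fold for Scgb3a2.

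The widely varying genes shared an order of the WT libraries. Scgb3a1, Bpifa1, Bpifb1, Muc5b and Muc5ac, 5 of the 9 genes, were highest in WT library 2 and lowest in WT library 0, an order found in 21.9% of all tested genes. Among the Ahr-KO libraries, Scgb3a1, Bpifa1, Bpifb1 and Muc5b were highest in library 0, as were 34.2% of all tested genes. For Bpifa1 this rests on 1 read, and its value of 0.81 is under the limits that a count of 0 allows in the other libraries. Muc5ac was instead read in Ahr-KO library 2 alone of that genotype. Scgb1a1 and Scgb3a2 instead were highest in library 0 among WT and in library 1 among Ahr-KO. These patterns were noticed in the same values and carry no test.

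**Figure D2:**
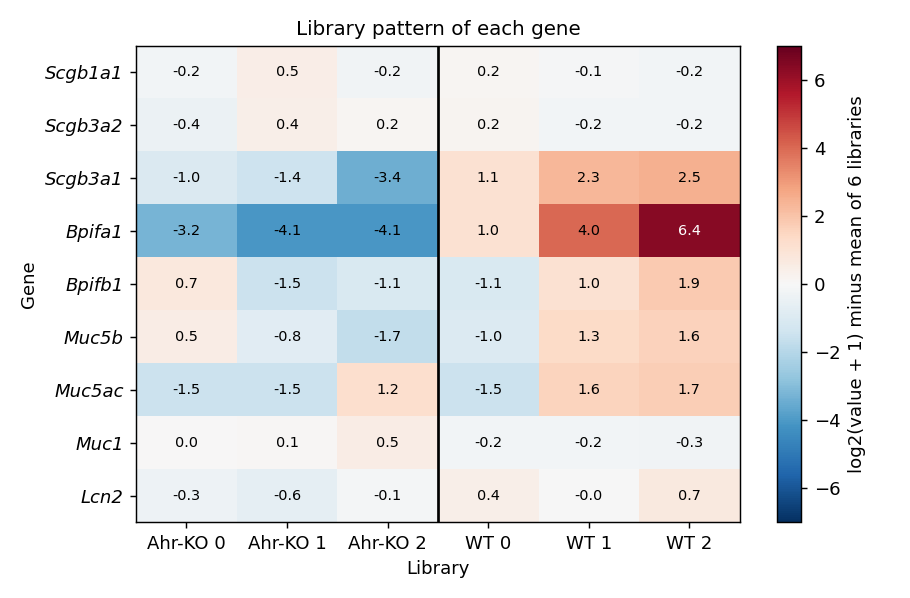
Deviation of log2(value + 1) from the mean of the 6 libraries, for the 9 genes that passed the filter (rows) in Ahr-KO libraries 0 to 2 and WT libraries 0 to 2 (columns); red is above and blue below the gene's mean. Bpifb1 and Muc5b both have Ahr-KO library 0 above and WT library 0 below their means, while Ahr-KO libraries 1 and 2 stand in opposite order for them.

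Ciliated cell genes, which share the airway lining, followed part of this pattern. Of 21 tested ciliated markers, 13 (61.9%) were highest in WT library 2 and lowest in WT library 0. The share was 60% among 10 alveolar type 2 markers, so the order was not particular to the airway lining. In the other companion lists it ran from 0% (other mucins) to 50% (AHR target genes), beside 21.9% of all tested genes. Among the Ahr-KO libraries, 20 of the 21 ciliated markers were highest in library 1, as Scgb1a1 and Scgb3a2 were. That held for 29.2% of all tested genes. Of the ciliated list 7 fell and 1 rose past the threshold, with a median difference of -0.60, where 6.26% of all tested genes were lower and 4.5% higher. The dynein gene Dnai2 fell to 118 ± 41.3 in Ahr-KO, against 322 ± 99.8 in WT (adjusted p = 0.024), and the axoneme gene Spag6 to 198 ± 26.6, against 498 ± 98.4 (adjusted p = 0.0076). Also lower were Hydin (log2 -1.05, adjusted p = 0.016), Dnah11 (log2 -0.98, adjusted p = 0.013) and the ciliated cell regulator Foxj1 (log2 -0.74, adjusted p = 0.030). The marker that rose was Tppp3, a tubulin-binding protein (1.64-fold, adjusted p = 0.025). The calls of Dnai2, Foxj1 and Tppp3 were each lost in 5 of 14 alternatives, with the highest adjusted p at 0.094, 0.094 and 0.088, and those of Hydin and Dnah11 in 1. This count moved when 1 library was left out, and so did the 1655 calls over all genes. Leaving out Ahr-KO library 0, 1 or 2 left 4, 6 and 1 ciliated calls, beside 1461, 529 and 407 over all genes. Leaving out WT library 0, 1 or 2 left 5, 3 and 6, beside 705, 871 and 1834. The part of ciliated cells in the secretory differences was not tested.

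Other secreted and club cell genes of the airway changed in both directions. Of 23 tested genes in this list, 3 fell and 3 rose (limma, adjusted p under 0.05), and the median was -0.26. This was 13% in each direction, beside 6.26% of all tested genes lower and 4.5% higher. Slpi, the secretory leukocyte protease inhibitor that protects the airway surface from neutrophil elastase, stood at 28.2, 11.6 and 12.3 in Ahr-KO, against 142, 184 and 246 in WT libraries. It was 11.03-fold lower in Ahr-KO (log2 -3.46 ± 0.38, adjusted p = 0.0040). Gabrp, the pi subunit of the GABA-A receptor, stood at 15.3, 10.7 and 5.46 in Ahr-KO, against 104, 89.5 and 124 in WT libraries, 9.88-fold lower (log2 -3.30 ± 0.37, adjusted p = 0.0043). For both genes every Ahr-KO library was far under every WT library, as for Scgb3a1, and their calls held in all 14 alternatives tried. Chia, the acidic mammalian chitinase, fell to 2598 ± 574 in Ahr-KO, against 7530 ± 2666 in WT (adjusted p = 0.013), but not once Ahr-KO library 2 was dropped (adjusted p = 0.065).

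Lpo, lactoperoxidase of gland and surface secretory cells, was, like Muc5b, highest in library 0 of Ahr-KO and library 2 of WT, with 30.6, 14.0 and 8.18 in Ahr-KO, against 32.0, 54.2 and 171 in WT libraries. Its difference of -2.05 ± 0.66 did not pass the threshold (adjusted p = 0.089). The list's first gene, Scgb1c1, had a difference of -0.81 ± 0.45 (adjusted p = 0.28). Of the genes that rose, Lyc2, a lysozyme, stood at 1663, 1240 and 1387 in Ahr-KO, against 175, 166 and 119 in WT libraries (9.34-fold, adjusted p = 0.00051). Its close relative Lyz2 leaves the level uncertain where reads were shared. Sec14l3, a lipid-binding protein, stood at 26583, 24498 and 26582 in Ahr-KO, against 13492, 13287 and 14161 in WT libraries (1.90-fold, adjusted p = 0.0035). Por, the reductase that feeds electrons to P450 enzymes, rose 1.56-fold (adjusted p = 0.039), a call lost in 9 of 14 alternatives (highest adjusted p = 0.099). The club cell P450 gene Cyp2f4 did not pass (log2 0.47 ± 0.24, adjusted p = 0.24).

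**Figure D3:**
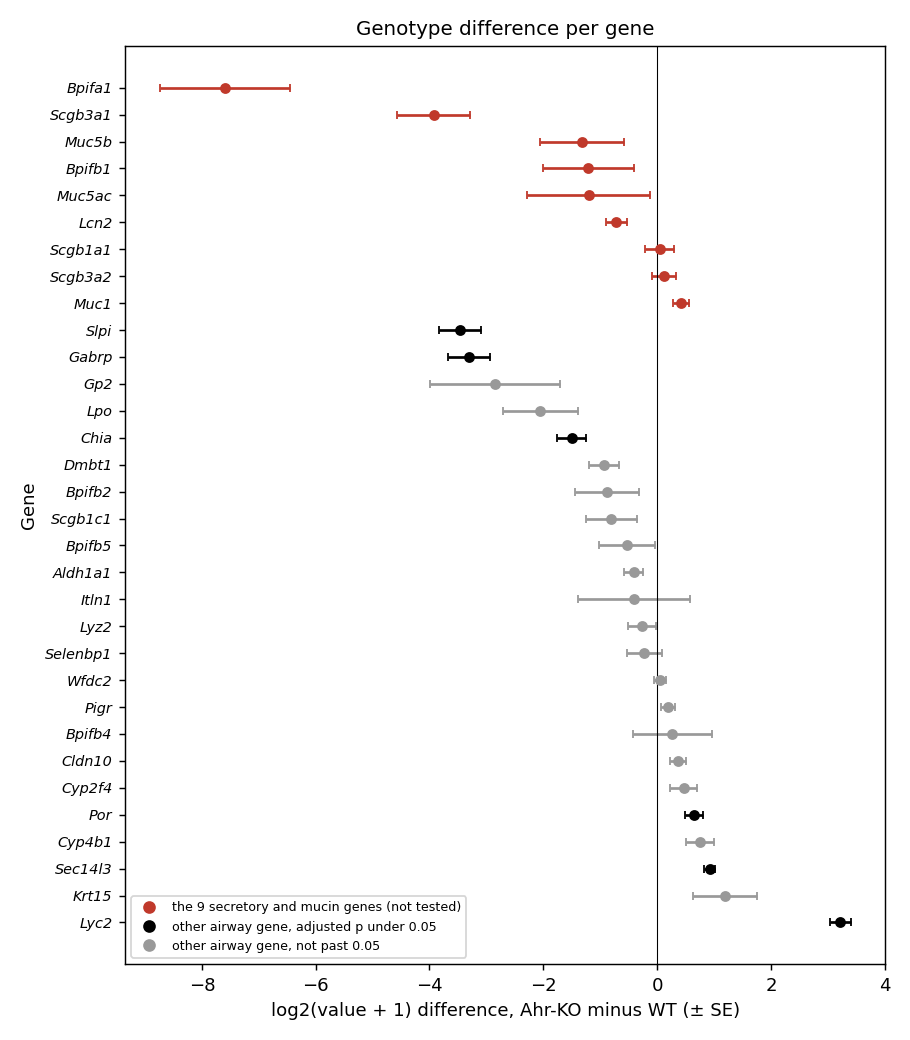
Log2(value + 1) difference, Ahr-KO minus WT, with its SE, for the 9 genes described here (red) and for the 23 tested genes of the other airway secreted and club cell list (black where the adjusted p was under 0.05, grey otherwise). Slpi and Gabrp lie near Scgb3a1, at -3.46 and -3.30 beside -3.93, while Lyc2 is the most raised at 3.22.

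Genes of the goblet cell programme gave no calls. Of 19 tested genes for goblet identity and mucin maturation, 0 passed the threshold by limma (0 by limma-voom, and 2 at an unadjusted p under 0.05), and 1 did with values rescaled to equal library totals. That 1 gene was Creb3l1, a regulator of secretory capacity, chosen here after its values were seen (log2 -0.92 ± 0.25, adjusted p = 0.057 in the reported fit). The factor Spdef, which drives goblet differentiation, had values of 135, 143 and 161 in Ahr-KO, against 125, 124 and 86.7 in WT libraries (adjusted p = 0.24). Tff1, Tff2 and Zg16 were listed at 0 in all libraries. Of 6 other mucins tested, 0 passed by limma (0 by limma-voom, and 1 at an unadjusted p under 0.05), and the first of that list, Muc2, had a difference of 0.78 ± 0.46 (adjusted p = 0.31). A p above the threshold does not show that these genes were alike in the genotypes.

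Regulators of the airway epithelium, and inducers of mucins with receptors and partners, gave few calls. That of Il6 is not read as a result, for the reason given below. Of 17 airway epithelial regulators, 1 rose (5.88%, beside 4.5% of all tested genes) and 0 fell: Foxa2, which with Nkx2-1 directs airway and alveolar genes, reached 1407 ± 240 in Ahr-KO, against 910 ± 115 in WT (adjusted p = 0.037, lost in 7 of 14 alternatives, with the highest at 0.12). Nkx2-1 had a difference of 0.59 ± 0.18 (adjusted p = 0.076). Of 20 tested inducers of mucins, their receptors and partners, 1 was lower (5%, beside 6.26% of all tested genes) and 1 higher (5%, beside 4.5%). Il6, an inflammatory cytokine, stood at 0.81, 0.83 and 0 in Ahr-KO, against 5.998, 4.93 and 6.99 in WT libraries. It passed the filter only through the WT libraries, so it had to differ, and its adjusted p of 0.028 (limma) is not read as a result. The syndecan gene Sdc1 was 1.36-fold higher (adjusted p = 0.030, highest 0.10). The mucin-inducing cytokines Il13, Il4 and Il17a were at or close to 0 in all libraries. So was Marco, listed at 0 throughout, the macrophage receptor that binds Scgb3a2 in mice.

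Markers of other cells that a piece of lung can hold are given beside these results. Of 10 alveolar type 2 markers, 1 rose (Etv5, a factor of these cells, 1.62-fold, adjusted p = 0.019, lost in 4 of 14 alternatives, with the highest at 0.079) and 0 fell. This was 10% of the list, beside 4.5% of all tested genes higher. Their summed values were 678923 to 791348 in Ahr-KO and 546494 to 612717 in WT. Much of these sums came from Sftpc, Sftpa1 and Sftpb, none of which passed (limma adjusted p = 0.36, 0.25 and 0.054). The first pan-epithelial marker, the adhesion gene Epcam, averaged 4037 ± 161 in Ahr-KO and 3174 ± 573 in WT (adjusted p = 0.12). Among the 3 pan-epithelial markers that rose (21.4% of the list, beside 4.5%), the keratin gene Krt7 was 2.71-fold (adjusted p = 0.0031) and Krt19 1.94-fold higher (adjusted p = 0.0054). Of 6 tested basal cell markers 0 passed by limma (0 by limma-voom, and 2 at an unadjusted p under 0.05). Krt5, the first gene listed, had no entry. Summed values of the basal list were 45.1 to 47.9 in Ahr-KO and 77.2 to 102 in WT, without overlap. Ngfr alone averaged 15.4 in Ahr-KO and 38.2 in WT (limma adjusted p = 0.067). Of 7 airway cartilage markers 0 passed by limma (0 by limma-voom, and 0 at an unadjusted p under 0.05), and the summed values were 223 to 377 in Ahr-KO and 238 to 310 in WT, with Matn1 at 0 and the defining marker Col2a1 at no more than 1.40 in any library. Of 13 lymphocyte markers 12 fell (92.3%, beside 6.26% of all tested genes). Lck fell to 273 ± 19.2 in Ahr-KO, against 606 ± 97.6 in WT (limma adjusted p = 0.0060), along with Cd8a, Nkg7 and Prf1 of cytotoxic cells. The first of this list, Cd3e of the T cell receptor complex, fell to 38.0 ± 8.39, against 93.1 ± 15.1 in WT (adjusted p = 0.019, lost in 4 of 14 alternatives). Dropping Ahr-KO library 1 left 7 calls, dropping number 2 left 6, and dropping WT library 0 left 7. Calls over all genes went from 1655 to 529, 407 and 705 with these drops. The other drops left 9 to 11 lymphocyte calls. The part of these cells in the differences of Scgb3a1, Bpifa1 and Lcn2 was not tested.

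**Figure D4:**
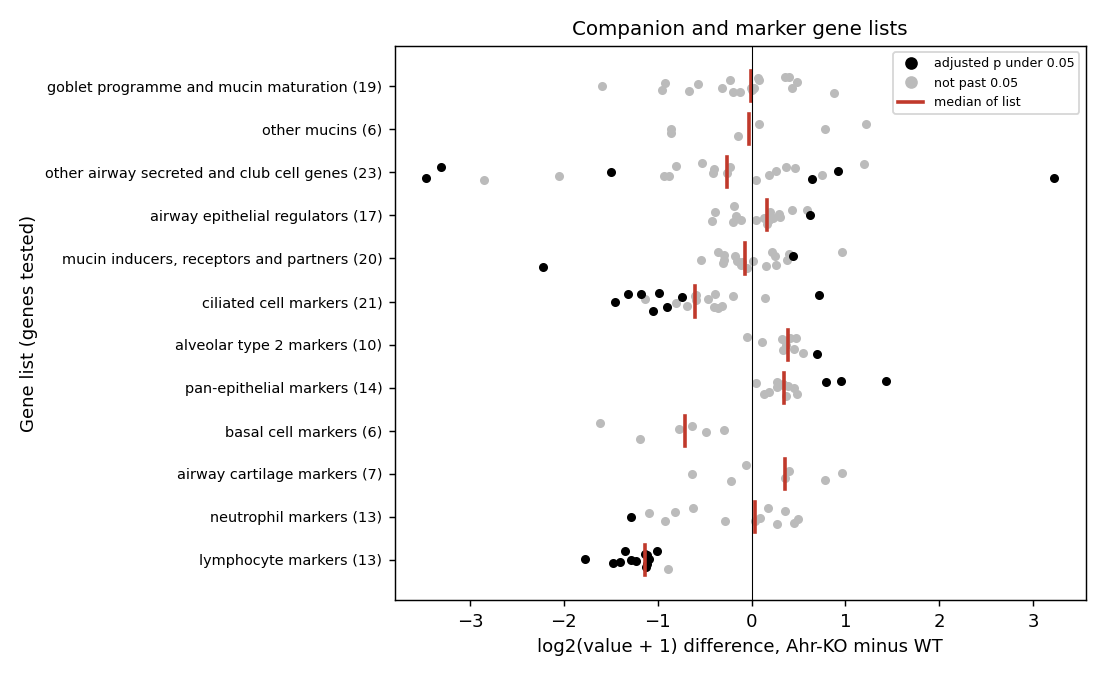
Log2(value + 1) difference, Ahr-KO minus WT, of every tested gene (points) in the companion and marker lists (rows, with the number of genes tested); black points passed an adjusted p of 0.05 and red lines are list medians. The ciliated list has a median of -0.60 and the lymphocyte list of -1.14, while the goblet list lies at 0.00.

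The genes whose library pattern was most like that of Scgb1a1 were found by Pearson correlation over the 6 libraries after centring each genotype on its mean. Tslp, an epithelial cytokine, ranked first (r = 0.999), with values of 49.2, 69.4 and 49.1 in Ahr-KO, against 67.0, 60.8 and 57.4 in WT libraries. The next were Slc28a3, Tdg, Fbxo7 and RragB (r from 0.992 to 0.995). All genes of a library share its scaling and its depth, which differed between libraries. RragB had values of only 1.36 to 4.96, so its r rests on few reads. Among the secretory genes, Scgb3a2 had an r of 0.75, Scgb3a1 of 0.11 and Bpifb1 of -0.65. These are descriptions of 6 libraries in which 15385 genes were compared.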

How the data were processed

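RNA was measured by bulk RNA-seq of total lung, with 1 library per sample. The build was rn6 and FastQC was among the tools, per the submitters' processing notes; no source used here gives the aligner, counter, annotation or strandedness. As deposited by the authors, 1 table holds values of a normalised signal per gene symbol and library, which is never negative. Of the values above 0, 97.4% to 97.9% lay within 0.05 of a whole multiple of 1 step per library, so value divided by step is called an estimated read here; because the rest were fractions, the planned count test could not be run. The columns number libraries from 0 to 2 and the titles from 1, so columns were mapped to groups only, and 0 columns were left unused. Nothing in the labels says that libraries came from different rats, so the p-values rest on the spread among these samples alone, and that spread may be technical.

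Values were taken as log2(value + 1). Genes reaching 1 in 3 or more libraries entered the test (15386 of 19828). The model, genotype only, was fitted with limma (version 3.58.1, R 4.3.3), using its trend option for the variance prior. Its 2-sided p-values were adjusted across these genes by the Benjamini-Hochberg method and called under 0.05. An exact permutation test of 3 against 3 cannot go below 0.1. The interval of a read ratio is exact (Clopper-Pearson, 95%), and the limit of a count of 0 is 3 reads; both cover counting error only.

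The 10 genes and the 13 companion and marker lists (216 symbols, 206 in the table) were chosen with earlier results of these data known. Most genes were named by rule. The rule took the 10 genes, the AHR targets Cyp1a1, Cyp1b1, Ahrr and Nqo1, and the 5 genes most like Scgb1a1. Of each list it took the first gene, where it was measured, and up to 4 called genes with the lowest p. Bpifa5, Chia, Por, Lpo, Cyp2f4, Tppp3, Creb3l1, Ngfr and the genes named as listed at 0 were chosen after their values were seen. Also named outside the rule were Ahr, the disrupted gene, Lyz2, a relative of Lyc2, and Il4, a cytokine beside Il13. So were Sftpa1, for its part in a sum, and Muc16, Tp63 and Sftpb, which alternatives called. Promoter sequences are from RefSeq (GRCr8), a later build than that of the table. The code was tested on simulated data. Alternatives were a pseudocount of 0.1, no filter, a filter at 10, quantile normalisation, equal library totals, limma without the trend, the library number as a replicate block, each library left out, and limma-voom on estimated reads, which was chosen after seeing the data. The result of 1 gene of the companion lists is not reported here.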

Additional observations from a re-analysis of the deposited data

How the results depend on the processing

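The log2 differences of Scgb3a1 (-4.41 to -3.19), Lcn2 (-0.91 to -0.56), Muc1 (0.27 to 0.52), Bpifb1 (-2.05 to -0.59) and Muc5b (-2.13 to -0.80) kept their sign in the 14 alternatives. Scgb1a1 changed sign in 4 of 14 and Scgb3a2 in 1. Scgb1a1 was -0.32 after quantile normalisation and Bpifa1 -10.13 with a pseudocount of 0.1. Without WT replicate 0 the groups did not overlap for 7 of the 10 genes, and for 4 or 5 without any other library. A lack of overlap is more common for every gene with fewer libraries, and the matching shares of all tested genes were not computed.

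The number of genes called was 1655, 952 without the trend, 899 with the library number as a replicate block, and 407 to 1834 when each library was left out. Rescaling to equal totals called 1314 genes lower and 449 higher, where the reported fit called 963 and 692. Deviations of same-numbered libraries correlated at -0.10, 0.07 and -0.07, and those of differently numbered ones at -0.05 to 0.12. Such values cannot show whether samples were paired.

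Equal library totals called 1 goblet gene, 0 regulators, 1 inducer or partner and 2 neutrophil markers. Quantile normalisation called 0 regulators, 1 inducer or partner and 0 neutrophil markers. Without the trend there were 0 regulators, 1 inducer or partner, 4 ciliated, 1 basal (Tp63) and 0 neutrophil markers. The replicate block changed these list counts by more than 1.5 times: it gave 0 inducers or partners, 5 ciliated, 0 alveolar type 2 and 0 neutrophil markers. A pseudocount of 0.1 and a filter at 10 each gave 1 inducer or partner and 2 alveolar type 2 markers (Etv5 and Sftpb). Limma-voom gave 2 alveolar type 2 and 0 neutrophil markers. Leaving out 1 library gave 0 to 1 goblet genes, 0 to 1 other mucins (Muc16), 0 to 2 regulators, 0 to 4 inducers or partners, 1 to 6 ciliated, 0 to 3 alveolar type 2, 2 to 5 pan-epithelial, 0 to 1 neutrophil and 6 to 11 lymphocyte markers, and 4 to 6 other airway genes. The planned edgeR test was not run, since whole reads could not be recovered. The cause of these moves was not tested. Ltf, with 1 read in all, and Muc5ac, with at most 9 in a library, are limited by depth.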
